A study of Mus musculus with 8 samples.

Results

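The genes described here are 7 heat shock chaperones and co-chaperones of the mouse, Hspb1, Hspe1, Hspd1, Hspa5, Hspa8, Bag3 and Dnajb1. They were taken by symbol, as every non-control array probe that carried one of these gene names. They make up 12 of 41174 probes and 7 of 27670 gene names. The study sorted CD4+ T cells into 4 populations labelled Treg (regulatory T cells), CD44hi, CD44lo and naive, with 2 arrays for each. The donors were male C57BL/6 mice, 15 weeks old, whose spleens and lymph nodes were pooled. The series title calls the mice Ox40-cre/ROSA-YFP. In these mice the promoter of Ox40 (Tnfrsf4), a costimulatory receptor on T cells, drives Cre recombinase, and Cre switches on a YFP reporter. All 4 populations therefore share this genotype, and CD44hi and CD44lo are known here only by their names, since the labels give neither the sorting markers nor the YFP status of a population. RNA was amplified linearly from small inputs, labelled with Cy3 and hybridised to 1-colour Agilent arrays of 60-base probes.

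Heat shock chaperones bind unfolded or newly made proteins and keep them from clumping. Hspa8 (the constitutive HSC70) binds client proteins in the cytosol, the J-domain protein Dnajb1 (HSP40) delivers clients and triggers ATP hydrolysis, and Bag3 releases nucleotide and steers clients towards autophagy. Hspb1 (HSP25, the mouse form of HSP27) is a small heat shock protein that holds unfolded proteins without ATP. Hspd1 (HSP60) and its lid Hspe1 (HSP10) fold proteins inside mitochondria, and Hspa5 (BiP) does so in the endoplasmic reticulum. Most of these genes are targets of the heat shock factor Hsf1, whereas Hspa5 is a classic target of the unfolded protein response. T cells are known to raise chaperones on activation and after heat or handling stress.

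The sequences that bear on the results are the probe behind the Hspb1 values, the pair of Hspa8 probes whose readings separated on 1 array, and 3 promoters. Probe sequences are those of the array files, 5′ to 3′, with positions on the mm7 build that the file headers name. The Hspb1 probe aligned across 188 bases of chromosome 5, chr5:134860337-134860524, plus strand, so that its 60 bases bridge a gap in the genome.
Hspb1 probe A_52_P404533: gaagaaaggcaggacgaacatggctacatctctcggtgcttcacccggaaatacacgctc
A second probe that carries the name Hspb1, A_52_P88910, was placed on another chromosome, chr13:44530685-44530744, and was not well above background on any of the 8 arrays. Hspa8 had probes 1001 bases apart, the first nearer the 3′ end of the transcript at chr5:5787852-5787911 and the second at chr5:5788853-5788912, both on the minus strand. The array files place both on chromosome 5, while RefSeq lists the Hspa8 gene on chromosome 9.
Hspa8 probe A_51_P170371: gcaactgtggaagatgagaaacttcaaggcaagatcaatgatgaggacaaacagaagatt
Hspa8 probe A_52_P12877: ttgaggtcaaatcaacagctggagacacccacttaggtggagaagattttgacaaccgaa

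Promoters were taken from RefSeq on GRCm38.p6 as the 250 bases before the transcription start, and 6 of the 7 genes had one in the table (not Hspa8). Those of Hspb1 and Hspe1 are shown because both genes were called in at least 1 comparison and their windows held a heat shock element, and that of Hspa5 because it answers to another stress pathway. Capitals mark matches to the heat shock element, searched as GAANNTTC or TTCNNGAA, and in Hspa5 the match to the endoplasmic reticulum stress element, searched as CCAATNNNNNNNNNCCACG. All were searched on both strands.
Hspb1 promoter, chr5:135887669-135887918, plus strand: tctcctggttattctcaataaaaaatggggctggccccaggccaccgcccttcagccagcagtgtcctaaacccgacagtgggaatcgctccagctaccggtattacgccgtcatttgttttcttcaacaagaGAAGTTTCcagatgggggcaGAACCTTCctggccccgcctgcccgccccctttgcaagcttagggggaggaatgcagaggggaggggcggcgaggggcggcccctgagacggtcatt
Hspe1 promoter, chr1:55087898-55088147, plus strand: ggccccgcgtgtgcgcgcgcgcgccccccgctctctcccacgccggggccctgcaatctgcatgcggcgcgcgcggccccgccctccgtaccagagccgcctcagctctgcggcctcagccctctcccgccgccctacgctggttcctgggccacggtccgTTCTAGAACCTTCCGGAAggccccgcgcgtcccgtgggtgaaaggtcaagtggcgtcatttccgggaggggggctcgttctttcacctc
Hspa5 promoter, chr2:34771840-34772089, plus strand: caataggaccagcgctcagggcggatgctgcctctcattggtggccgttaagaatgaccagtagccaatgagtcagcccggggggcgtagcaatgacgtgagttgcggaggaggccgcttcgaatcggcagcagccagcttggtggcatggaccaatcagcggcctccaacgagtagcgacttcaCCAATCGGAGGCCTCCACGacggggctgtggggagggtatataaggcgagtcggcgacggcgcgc
The Hspb1 window held GAANNTTC at 2 places, from -117 to -110 and from -97 to -90, and 6.69% of 32851 mouse promoters held this motif in the same window (TTCNNGAA, 7.17%). The Hspe1 window held both motifs, overlapping as 3-unit elements (GAANNTTC followed by NNGAA, or TTCNNGAA followed by NNTTC) from -89 to -77 and from -84 to -72, and 0.466% of promoters held such a 3-unit element. Hspd1 lies head to head with Hspe1, and 1 of its 2 listed promoters shares 215 bases with the Hspe1 window on the opposite strand, the element included. The Hspa5 window held the endoplasmic reticulum stress element from -65 to -47, and 0.113% of promoters held it. No heat shock element in these letters was found in the windows of Hspa5, Bag3 or Dnajb1. These matches describe letters in a window and say nothing of binding in these cells.

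Levels are log2 processed signals minus the array's 75th percentile over all non-control probes, so 0 stands for that percentile, and levels of different probes are not set against each other. A gene is read from its brightest probe. Differences were tested with limma in 1 fit of all 8 arrays, and a gene was called where its p, adjusted by Benjamini-Hochberg over 17996 genes, was under 0.05. A value after ± is the standard error from that fit, with n = 2 arrays per group. Foxp3, the factor that defines regulatory T cells, was log2 7.77 higher in Treg, 4.88 higher in CD44hi and 5.64 higher in CD44lo than in naive cells. Cd44 was 2.83-fold higher in CD44hi than in CD44lo cells (adjusted p = 0.00535), and Tnfrsf4 (Ox40) was log2 3.50 higher in Treg than in naive cells (adjusted p = 4.4e-04). The 5 general CD4 T cell markers were well above background on all 8 arrays, and 1 call was made among them in the 6 comparisons, of Lat, lower in Treg than in naive cells. All 5 were negative in each of the 3 Treg comparisons, with medians of log2 -0.34 against CD44hi, -0.27 against CD44lo and -0.24 against naive cells. Naive replicate 2 stood apart from the other 7 arrays. Its 75th percentile was 639, against 991 on naive replicate 1 and 1045 to 1337 on the other 6 arrays. The SD of the log2 difference between the naive arrays over all genes was 0.630, against 0.365 to 0.480 for the other groups, and the chaperone calls against naive cells are therefore also given without that array.

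**Figure D1:**
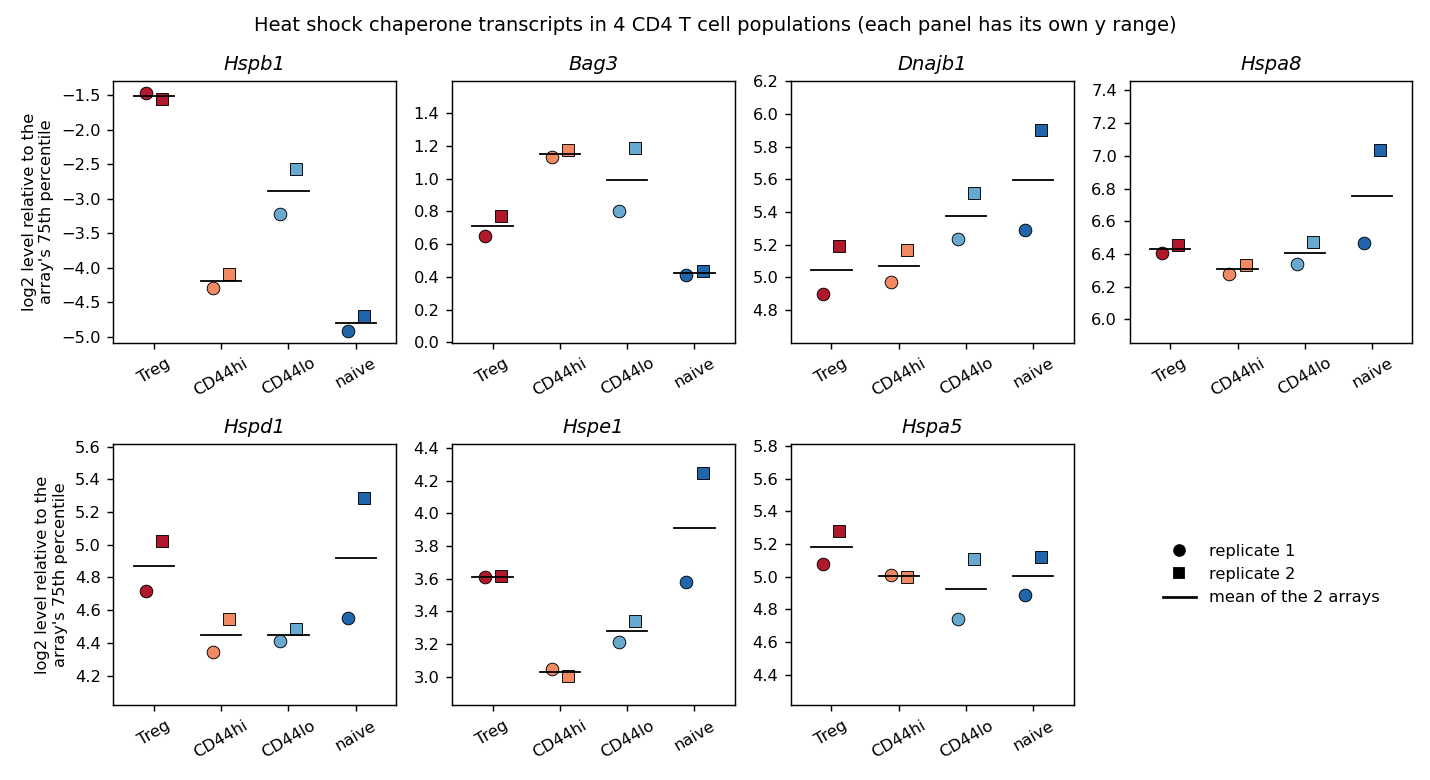
Log2 level of each of the 7 genes on each of the 8 arrays (y axis, relative to the array's 75th percentile, with a separate range per panel), with the groups Treg, CD44hi, CD44lo and naive along the x axis. Circles are replicate 1, squares replicate 2 and bars the mean of the 2 arrays; the 4 groups of Hspb1 do not overlap, and naive replicate 2 is the highest array for Dnajb1, Hspa8, Hspd1 and Hspe1.

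Hspb1 had the largest differences between the populations of the 7 genes. Its level was -1.47 and -1.55 on the Treg arrays, -4.29 and -4.10 on the CD44hi arrays, -3.22 and -2.57 on the CD44lo arrays, and -4.92 and -4.69 on the naive arrays. The groups did not overlap, in the order Treg, CD44lo, CD44hi and naive, so the small heat shock protein was highest in regulatory T cells and second in CD44lo cells, not in CD44hi cells. As processed signals before scaling, the readings were 421 and 455 in Treg, 61.7 and 69.4 in CD44hi, 112 and 180 in CD44lo, and 32.8 and 24.7 in naive cells. All 8 were well above background, although the naive readings lay within a factor of a few of the faintest signals so called, which were 8.88 to 17.4 by array.

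Hspb1 rose 9.80-fold in Treg over naive cells (log2 3.29 ± 0.24, limma adjusted p = 2.1e-04) and 6.42-fold over CD44hi cells (log2 2.68 ± 0.24, adjusted p = 0.00164). In each of these comparisons Hspb1 was the 1 member called of 7, where 21.9% and 8.19% of all genes were called. Against CD44lo cells it rose 2.60-fold in Treg (log2 1.38 ± 0.24, adjusted p = 0.0227), again the 1 member called, beside 5.56% of all genes. In sorted populations measured in bulk, fewer positive cells and less RNA per cell cannot be told apart, here or below.

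Hspb1 also separated the CD44 populations from each other. It fell 2.47-fold in CD44hi against CD44lo cells (log2 -1.30 ± 0.24, adjusted p = 0.0204), the 1 member called beside 9.37% of all genes. In CD44lo it rose 3.76-fold over naive cells (log2 1.91 ± 0.24, adjusted p = 0.00503), the 1 member called beside 5.29% of all genes. CD44hi cells exceeded naive cells by log2 0.61 ± 0.24, which was not called (adjusted p = 0.101), and by 0.72 without naive replicate 2 (adjusted p = 0.13).

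The Hspb1 differences held in sign on each of the 2 slides. Treg exceeded naive cells by log2 3.22 on slide 1 and 3.36 on slide 2, CD44hi cells by 2.82 and 2.55, and CD44lo cells by 1.1 and 1.67. CD44hi lay below CD44lo cells by -1.72 and -0.88, and CD44lo above naive cells by 2.13 and 1.70. Without naive replicate 2 the gain over naive cells was log2 3.40 in Treg (limma adjusted p = 0.00339) and 2.02 in CD44lo cells (adjusted p = 0.0356). The calls against naive and CD44hi cells in Treg held under every alternative run, but their size depended on the processing. On normexp-corrected spot means the Treg gain over naive cells was log2 1.85 and that of CD44lo was 0.76 (adjusted p = 0.102). CD44hi turned to -0.13 there (adjusted p = 0.643). That correction added an offset of 50 to every signal, while the naive Hspb1 processed signals were 32.8 and 24.7. The part of the offset in the smaller differences was not tested. The Treg to CD44lo call ended without either Treg array (adjusted p = 0.124 and 0.128) or without CD44lo replicate 1 (adjusted p = 0.12). The CD44hi to CD44lo call ended without either CD44hi array (adjusted p = 0.087 and 0.0721) or without CD44lo replicate 2 (adjusted p = 0.0832).

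The order of Hspb1 over the groups was also that of the regulatory T cell markers by their means, though not array by array. The summed level of Foxp3, Il2ra, Ikzf2 and Ctla4, all 4 above background in every group, was 29.8 to 31.3 on Treg arrays, 7.58 to 9.13 on CD44hi arrays, 8.03 to 11.2 on CD44lo arrays and 0.226 to 0.328 on naive arrays, as linear multiples of the 75th percentile. Il2ra, the IL-2 receptor alpha chain, was log2 -1.03 lower in CD44hi than in CD44lo cells (adjusted p = 0.0184), and Foxp3 differed there by -0.76 (adjusted p = 0.166). B cell markers moved in part with Hspb1 as well. Their summed level over 6 genes was 3.67 to 3.96 on Treg arrays, 1.28 to 1.47 on CD44hi, 0.917 to 1.14 on CD44lo and 0.213 to 0.402 on naive arrays. Of the defining markers, Blk was not above background in Treg, CD44lo or naive cells, nor Ms4a1 in naive cells. The part of either marker list in the Hspb1 differences was not tested.

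The genes most like Hspb1 over the 8 arrays, by Pearson correlation of log2 levels among 17995 other tested genes, were Arid5b (r = 0.994), Sh3tc1 (r = 0.989) and Phlpp1 (r = 0.988). Arid5b is a DNA-binding cofactor, and Phlpp1 a phosphatase that acts on AKT. The arrays share the 4 groups, so these r describe a common group pattern and carry no p. None of the other 6 members followed Hspb1, for which r lay between -0.39 (Dnajb1) and 0.46 (Hspa5).

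**Figure D2:**
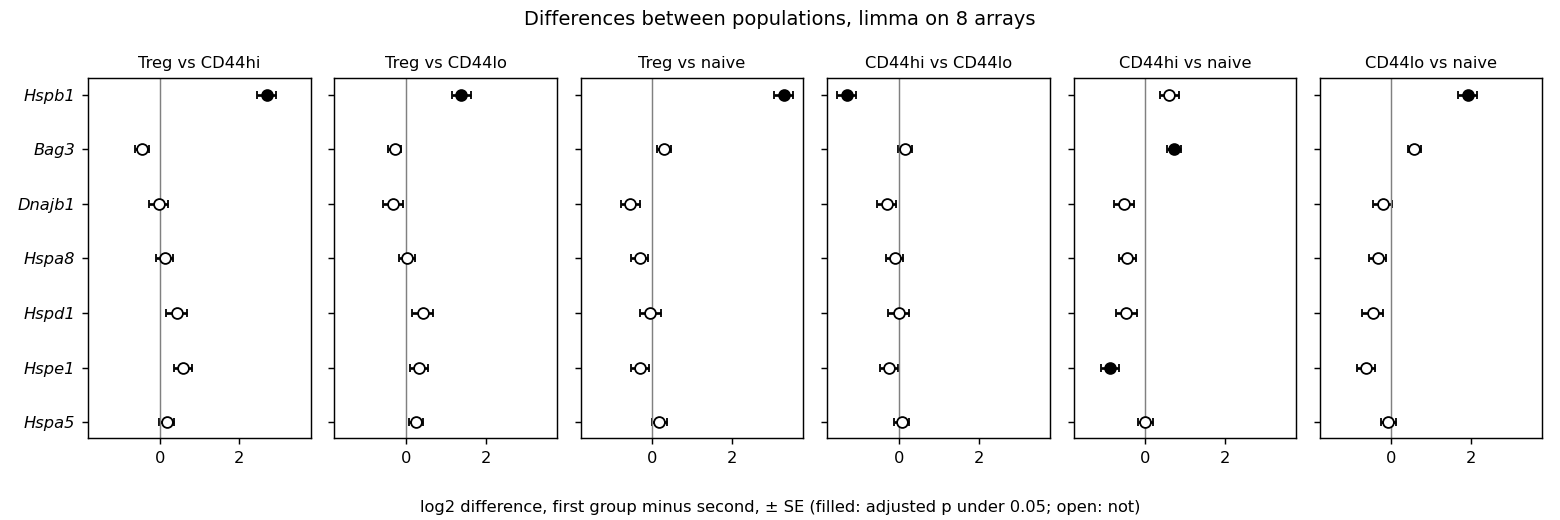
Log2 difference between groups (x axis, first-named group minus second, points with SE bars) for the 7 genes (rows) in the 6 comparisons (panels), from the fit of 8 arrays. Filled points were called; 5 of the 7 filled points are Hspb1, and the other 2 are Bag3 (0.73) and Hspe1 (-0.88) in CD44hi against naive cells.

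Bag3 was the co-chaperone that differed, and CD44hi cells held the most. Its level was 0.65 and 0.77 in Treg, 1.13 and 1.17 in CD44hi, 0.80 and 1.19 in CD44lo and 0.41 and 0.43 in naive cells. Naive cells were below all other arrays, while CD44lo overlapped CD44hi. Bag3 rose 1.66-fold in CD44hi over naive cells (log2 0.73 ± 0.17, limma adjusted p = 0.0214), with 0.70 on slide 1, 0.77 on slide 2, and 0.74 without naive replicate 2 (adjusted p = 0.0431). In that comparison 2 of 7 members were called, Bag3 higher and Hspe1 lower, and 27.8% of all genes were called, so the share of members is near that of all genes. The call ended without either CD44hi array (adjusted p = 0.0854 and 0.115).

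A second Bag3 probe, whose 60 bases aligned across 5967 bases of chr7:124636853-124642819, gave the same order by group means. It read -3.12 and -3.22 in Treg, -2.71 and -2.67 in CD44hi, -2.81 and -2.80 in CD44lo, and -3.42 and -3.66 in naive cells, with no overlap between any 2 groups. In a fit of every probe (27162 tested) this Bag3 probe rose 1.80-fold in CD44hi over naive cells (log2 0.85 ± 0.15, limma adjusted p = 0.00829), where 25.5% of probes were called. It also rose in CD44lo over naive cells there (log2 0.74 ± 0.15, adjusted p = 0.045), where 4.69% of probes were called, while the brighter Bag3 probe gave 0.57 ± 0.17 and was not called (adjusted p = 0.155). Treg exceeded naive cells by 0.37 ± 0.15 on this probe (adjusted p = 0.134). Without naive replicate 2 this Bag3 probe gave 0.73 in CD44hi (adjusted p = 0.0105) and 0.62 in CD44lo cells, where the call ended (adjusted p = 0.0539). The genes most like Bag3 were Elapor1 (r = 0.984), Zfp523 (r = 0.981) and Fbn2 (r = 0.979) over the 8 arrays.

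Hspa8, the constitutive HSP70, was level across the groups apart from 1 array. It read 6.41 and 6.45 in Treg, 6.28 and 6.33 in CD44hi, 6.34 and 6.47 in CD44lo, and 6.47 and 7.04 in naive cells. The 7 arrays other than naive replicate 2 spanned 6.28 to 6.47. Against naive cells Hspa8 differed by -0.32 ± 0.21 in Treg (limma adjusted p = 0.29), -0.45 ± 0.21 in CD44hi (adjusted p = 0.155) and -0.35 ± 0.21 in CD44lo (adjusted p = 0.36), none called. Without naive replicate 2 these became -0.03, -0.16 and -0.06. The direction against naive cells also turned under quantile normalisation and on the authors' deposited table.

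Dnajb1, the HSP40 partner of Hspa8, had its lowest mean in Treg. It read 4.90 and 5.19 in Treg, 4.97 and 5.17 in CD44hi, 5.24 and 5.52 in CD44lo, and 5.29 and 5.90 in naive cells. Naive arrays lay above both Treg and both CD44hi arrays but overlapped CD44lo. The differences from naive cells were -0.55 ± 0.25 in Treg (limma adjusted p = 0.151) and -0.53 ± 0.25 in CD44hi (adjusted p = 0.156), neither called, and -0.25 and -0.22 without naive replicate 2. Its second probe read 2.34 and 2.87 in Treg, 2.38 and 2.79 in CD44hi, 2.76 and 3.12 in CD44lo, and 2.85 and 3.09 in naive cells, and all 4 groups overlapped at least 1 other.

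Of the mitochondrial chaperonin subunits, Hspe1 was called lower in CD44hi than in naive cells and Hspd1 was not called. Hspe1 read 3.61 and 3.61 in Treg, 3.05 and 3.01 in CD44hi, 3.22 and 3.34 in CD44lo, and 3.58 and 4.24 in naive cells. CD44hi lay below all other arrays and CD44lo below Treg and naive, which overlapped. Hspe1 fell 1.84-fold in CD44hi against naive cells (log2 -0.88 ± 0.23, limma adjusted p = 0.0301), with -1.19 on slide 1, which holds naive replicate 2, and -0.57 on slide 2. Without naive replicate 2 the fall was -0.55 (adjusted p = 0.0223), but the call ended without either CD44hi array (adjusted p = 0.0984 and 0.128) and, more narrowly, without any 1 of the Treg or CD44lo arrays (adjusted p = 0.0597 to 0.06). Markers of CD8 T and NK cells were also lower outside the naive group. Their summed level over 5 genes was 5.58 to 5.97 on Treg arrays, 5.23 to 5.62 on CD44hi, 7.24 to 8.3 on CD44lo and 14.8 to 21.1 on naive arrays, with 4 of 5 above background on both arrays in Treg and 3 of 5 in each other group. Cd8b1 and Klrd1 were called lower and Klrb1c higher than in naive cells in all 3 other groups, and Ncr1 was not above background in Treg, CD44lo or naive cells, nor Cd8a in CD44lo cells. The part of these markers in the differences from naive cells was not tested.

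Treg exceeded CD44hi cells by log2 0.58 ± 0.23 for Hspe1, which was not called (limma adjusted p = 0.207). That difference was 0.56 on slide 1 and 0.61 on slide 2, and it passed the threshold under quantile normalisation (log2 0.62, adjusted p = 0.0462), on the authors' deposited table (log2 0.67, adjusted p = 0.0162), with only these groups in the fit (adjusted p = 0.0468) and without either naive array (adjusted p = 0.0187). The genes most like Hspe1 over the 8 arrays were Lipt1, Nap1l1 and Gnb1l, each at r = 0.995. Lipt1 is a mitochondrial lipoyl transferase and Nap1l1 a histone chaperone.

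Hspd1, the barrel for which Hspe1 is the lid, had means in CD44hi and CD44lo cells that differed by less than 0.01 on the log2 scale. It read 4.72 and 5.03 in Treg, 4.35 and 4.55 in CD44hi, 4.41 and 4.48 in CD44lo, and 4.55 and 5.29 in naive cells. Treg lay above CD44hi and CD44lo on both arrays, whereas naive overlapped Treg, and no difference was called. Treg exceeded CD44hi by 0.42 ± 0.26 (limma adjusted p = 0.435) and CD44lo by 0.42 ± 0.26 (adjusted p = 0.477). Its second probe read 1.55 and 2.17 in Treg, 1.32 and 1.42 in CD44hi, 1.27 and 1.29 in CD44lo, and 1.45 and 1.52 in naive cells, and there Treg lay above all other arrays, also without a call. By group means that probe ran Treg, naive, CD44hi, CD44lo, while the brighter Hspd1 probe had naive cells first and Treg second. Over the 8 arrays Hspd1 and Hspe1 had a Pearson r of 0.882, and 0.702 over 7 arrays without naive replicate 2, as a description over arrays that share the groups.

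Hspa5, the chaperone of the endoplasmic reticulum, differed least. It read 5.08 and 5.28 in Treg, 5.01 and 5.00 in CD44hi, 4.74 and 5.11 in CD44lo, and 4.89 and 5.12 in naive cells. Treg lay above CD44hi but overlapped CD44lo and naive. Treg exceeded naive cells by 0.18 ± 0.18 (limma adjusted p = 0.497), by 0.29 without naive replicate 2 (adjusted p = 0.325), and on the authors' deposited table by 0.44, which passed the threshold (adjusted p = 0.0483). In all, 7 of 42 values (7 genes in 6 comparisons) were called, 5 of them for Hspb1. Of all genes, 5.29% (CD44lo against naive) to 27.8% (CD44hi against naive) were called by comparison, so the pooled count is no result about the members. The 34 uncalled values of the other 6 genes lay between -0.632 and 0.584 on the log2 scale. The median of all genes was between -0.20 and -0.04 in the 6 comparisons, so small negative differences from naive cells lay near that of the array as a whole. The median of the 7 genes was 0.18 in Treg against CD44hi, 0.25 in Treg against CD44lo, -0.05 in Treg against naive, -0.10 in CD44hi against CD44lo, -0.45 in CD44hi against naive and -0.22 in CD44lo against naive cells.

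The naive arrays disagreed on 4 of the 7 genes in scaled levels but not in unscaled signals. Naive replicate 2 exceeded replicate 1 by log2 0.73 for Hspd1, 0.67 for Hspe1, 0.61 for Dnajb1 and 0.57 for Hspa8 after scaling. Before scaling, the signal of replicate 2 over that of replicate 1 was 1.07 for Hspd1, 1.02 for Hspe1, 0.986 for Dnajb1 and 0.960 for Hspa8. For Hspb1 it was 0.753, for Hspa5 0.758 and for Bag3 0.657. Bag3 therefore differed by 0.03 after scaling. Whether scaling accounts for the gaps was not tested.

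The Hspa8 probe nearer the 5′ end went the other way on that array. It read 5.11 and 5.60 in Treg, 5.03 and 5.24 in CD44hi, 5.16 and 5.19 in CD44lo, and 5.29 and 3.89 in naive cells, and naive replicate 2 stood below all other arrays. In the fit of every probe it differed from naive cells by 0.77 ± 0.43 in Treg, 0.55 ± 0.43 in CD44hi and 0.59 ± 0.43 in CD44lo, none called and each opposite in sign to the 3′ Hspa8 probe. The log2 signal of the 3′ Hspa8 probe minus the 5′ one was 0.859 to 1.29 on 7 arrays and 3.15 on naive replicate 2. For Hspd1, with probes 634 bases apart, this gap was 2.86 to 3.20 on 7 arrays and 3.77 on naive replicate 2. For Dnajb1 (1435 bases apart) it was 2.33 to 2.59 and 2.81, and for Bag3 (6472 genomic bases apart) 3.61 to 3.99 and 4.09. All 4 genes with a pair of usable probes thus had their largest gap on naive replicate 2. Over 1474 probe pairs of other genes, 300 to 5000 bases apart, the median 3′ minus 5′ gap relative to each pair's own mean was 0.31 on naive replicate 2, with 75.9% of pairs above their mean. On the other 7 arrays it was -0.10 to 0.0003, with 28.0% to 50.1% of pairs above. This measure was chosen after the Hspa8 readings had been seen, and its part in the naive levels was not tested.

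**Figure D3:**
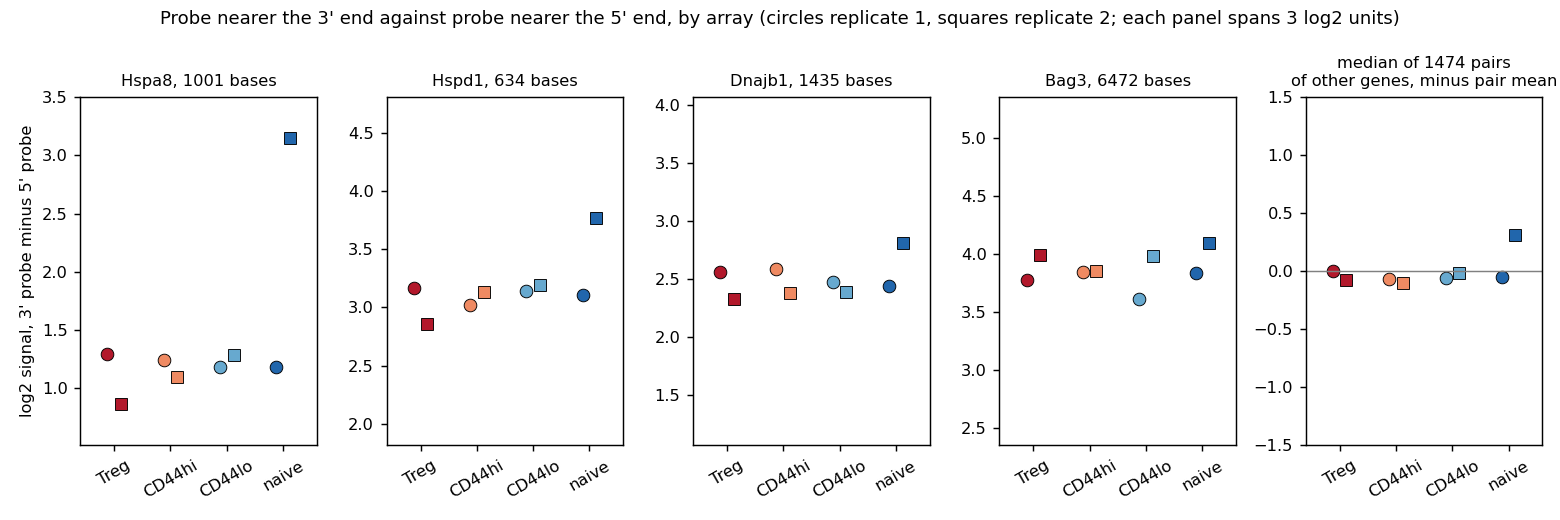
Log2 signal of the probe nearer the 3′ end minus that of the probe nearer the 5′ end (y axis, each panel spanning 3 log2 units) on each array for 4 members, with the groups along the x axis (circles replicate 1, squares replicate 2). The last panel shows the median over 1474 pairs of other genes, each minus its own mean over arrays; naive replicate 2 is the highest point in all 5 panels.

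The wider chaperone machinery was surveyed in 10 lists of 117 further genes, of which 111 were tested. In Treg against CD44hi cells 1 was called higher and 1 lower (1.8% of those tested), against CD44lo cells 0 of 111 by limma (8 at an unadjusted p under 0.05), and against naive cells 4 higher and 6 lower (9.01%). In CD44hi against CD44lo cells 2 were higher and 1 lower (2.7%), and against naive cells 6 higher and 9 lower (13.5%). In CD44lo against naive cells 1 was called, higher (0.901%). The shares over all genes given above were larger in each of the 6 comparisons. Of the 26 calls against naive cells, 23 held without naive replicate 2, and the other 3 were Lonp1 in CD44hi (limma adjusted p = 0.0505), Dnajc3 in Treg (adjusted p = 0.0802) and Hsf4 in CD44lo cells (adjusted p = 0.138). Without naive replicate 1 the genes called against naive cells numbered 56 in Treg, 65 in CD44hi and 52 in CD44lo cells, or 50.5%, 58.6% and 46.8% of the 111, beside 51.1%, 51.3% and 40.0% of all genes. Of all 31 calls, 7 held with each of the 8 arrays left out in turn, namely those of Atf6, Ahsa2, Dnajb4, Hspb11, Hsf4 and Hmox1 in CD44hi and of Xbp1 in Treg, each against naive cells. The median over the 111 genes was -0.28 in Treg, -0.25 in CD44hi and -0.22 in CD44lo against naive cells, beside -0.20, -0.15 and -0.13 over all genes.

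Among relatives of the cytosolic HSP70 system, Hspa2, an HSP70 best known from the testis, rose 3.63-fold in CD44hi over naive cells (limma adjusted p = 0.0124), whereas Hspa12a, a distant HSP70 relative, fell 3.98-fold (adjusted p = 0.0359). The log2 difference of Hspa12a was -2.74 without naive replicate 2 and -1.24 without naive replicate 1. The Hspa12a call ended without naive replicate 1, without CD44hi replicate 2 and without any 1 of the Treg or CD44lo arrays. Dnajb4, a J-domain protein close to Dnajb1, fell 2.73-fold in CD44hi against naive cells (adjusted p = 0.00351) and 1.96-fold against CD44lo cells (adjusted p = 0.037), and was 1.88-fold higher in Treg than in CD44hi cells (adjusted p = 0.0496). Of 12 tested BAG-domain and other HSP70 co-factors besides Bag3, 0 were called by limma in any comparison, with 5 at an unadjusted p under 0.05 in at least 1. Ahsa2, an HSP90 co-chaperone, fell 2.38-fold in Treg and in CD44hi against naive cells (adjusted p = 0.00872 and 0.00726), and Sugt1, which bridges HSP90 to its clients, fell 1.76-fold in Treg (adjusted p = 0.0364). The J-domain protein Dnajc21 fell 1.61-fold in Treg and 1.6-fold in CD44hi against naive cells (adjusted p = 0.0202 and 0.0177), while Dnaja4 rose 1.45-fold in Treg (adjusted p = 0.042). Without naive replicate 2 the fall of Sugt1 in Treg was 1.44-fold (adjusted p = 0.0374), a log2 difference over 1.5 times smaller. Of the 6 tested small heat shock proteins other than Hspb1, 1 was called, in Treg and in CD44hi against naive cells. That is 16.7% in each, below the 21.9% and 27.8% of all genes. The 1 called was Hspb11. It fell 2.22-fold in Treg (adjusted p = 0.0367) and 3.33-fold in CD44hi (adjusted p = 0.00673), both against naive cells and opposite in sign to Hspb1, and the protein is known as an intraflagellar transport subunit. The naive arrays read 2.95 on replicate 2 and 1.99 on replicate 1 for Hspb11, and without replicate 2 the fall was 1.59-fold in Treg (log2 -0.67, adjusted p = 0.0151) and 2.38-fold in CD44hi (log2 -1.25, adjusted p = 0.00266).

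Of 15 tested mitochondrial chaperones and proteases besides the chaperonin, 3 were called in CD44hi against naive cells (20.0%, below the 27.8% of all genes). All 3 were lower, namely the mitochondrial HSP70 Hspa9 at 1.77-fold (limma adjusted p = 0.0083), its J-domain partner Dnaja3 at 1.44-fold (adjusted p = 0.0303) and the protease Lonp1 at 1.41-fold (adjusted p = 0.0483). The cytosolic chaperonin TRiC had 0 of 9 subunits called by limma in any comparison, with 4 at an unadjusted p under 0.05 in at least 1. All 9 TRiC subunits were positive in Treg against CD44hi cells, with a median of log2 0.24 beside -0.04 over all genes.

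In the endoplasmic reticulum list, whose chaperone Hspa5 was not called, 3 of 27 tested genes were higher and 1 was lower in CD44hi than in naive cells (14.8%, below the 27.8% of all genes). The stress sensor Atf6 rose 3.79-fold (limma adjusted p = 0.00136), the Hspa5 co-factor Sdf2l1 2.50-fold (adjusted p = 0.0174) and the transcription factor Xbp1 1.68-fold (adjusted p = 0.0117), while Eif2ak3 (PERK) fell 1.82-fold (adjusted p = 0.0414). In Treg against naive cells Xbp1 rose 2.02-fold (adjusted p = 0.00408) and Atf6 2.03-fold (adjusted p = 0.0218), and Eif2ak3 (2.01-fold, adjusted p = 0.0307) and Dnajc3 (1.5-fold, adjusted p = 0.0433) fell. Eif2ak3 read 1.51 on naive replicate 2 and 0.75 on naive replicate 1, and without replicate 2 it was 1.55-fold lower in Treg (adjusted p = 0.0145) and 1.40-fold lower in CD44hi (adjusted p = 0.0228) than in naive cells. CD44hi also exceeded CD44lo cells for Sdf2l1 (2.59-fold, adjusted p = 0.034) and Atf6 (2.19-fold, adjusted p = 0.0281). Of 15 tested further genes known to be induced by heat shock, 2 were called in CD44hi against naive cells. That is 13.3%, below the 27.8% of all genes. The heme oxygenase Hmox1 rose 4.67-fold (adjusted p = 0.0038), while Dnajb4 fell, as given above. In Treg against CD44hi cells 2 were also called (13.3%, beside 8.19% of all genes). Hmox1 was 2.75-fold lower in Treg (adjusted p = 0.0457), and Dnajb4 was higher. Myeloid and dendritic markers, taken as a sum, were also highest in CD44hi cells. Their summed level over 6 genes was 0.477 to 0.732 on Treg arrays, 0.842 to 1.07 on CD44hi, 0.352 to 0.392 on CD44lo and 0.457 to 0.639 on naive arrays, with 5 of 6 above background on both arrays in Treg and 6 of 6 in each other group. Lyz2 made up the largest part of that sum in CD44hi cells, with log2 levels of -0.35 and -0.76. Of the 6 genes, 2 were positive in CD44hi against naive cells (median log2 -0.47) and 5 against CD44lo cells (median log2 0.54). In Treg against CD44hi cells 0 were positive. Itgam, Itgax, Csf1r and Adgre1 had their highest mean in naive cells. Lyz2 of this list was called higher in CD44hi than in CD44lo and naive cells, and Itgax higher than in CD44lo but lower than in naive cells. The part of these markers in the Hmox1 differences was not tested. Hsf1, the master heat shock factor, was called in none of the 6 comparisons and differed from naive cells by -0.36 in Treg (adjusted p = 0.145). Hsf4 was called higher than in naive cells in Treg, CD44hi and CD44lo (adjusted p = 0.00724, 0.00319 and 0.0238), with only 1 of 2 naive arrays above background.

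Hspa1a, the stress-inducible HSP70, varied between arrays rather than between groups. It read -0.55 and -2.95 in Treg, 0.36 and -1.34 in CD44hi, 0.62 and -2.59 in CD44lo, and -0.34 and -3.29 in naive cells, in each case replicate 2 and then replicate 1. Replicate 2 was higher in all 4 groups, by log2 2.40, 1.70, 3.21 and 2.95 in that order of groups. Its near-identical copy Hspa1b was not measured separately, so the Hspa1a reading may include both. No comparison of groups called Hspa1a, with a standard error of 1.45 in each.

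The replicate numbers come from the sample titles, which do not say what a number stands for. Arrays numbered 2 were therefore set against arrays numbered 1 in a limma fit with the 4 groups as terms, a comparison added after these values had been seen. Hspa1a was 5.92-fold higher on arrays numbered 2 (log2 2.57 ± 0.26), but its adjusted p of 0.121 missed the threshold. Of all genes 3 (0.0167%) were called, and 0 of the 7 members by limma, with 1 member, Dnajb1, at an unadjusted p under 0.05 (log2 0.34 ± 0.11, adjusted p = 0.306). By their brightest probes, Dnajb1, Hspd1, Hspa8 and Bag3 were higher on the array numbered 2 in all 4 groups. This held for 16.2% of all genes, and 0 members were lower in all 4. The second probes of Hspa8 and Bag3 did not share this pattern. On naive replicate 2 they were lower than on replicate 1, by log2 -1.40 and -0.23, and that of Bag3 was lower on Treg replicate 2 as well. For Hspb1 the difference was 0.25 ± 0.14 (adjusted p = 0.539), with -0.08 in Treg and 0.65 in CD44lo cells as its lowest and highest.

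**Figure D4:**
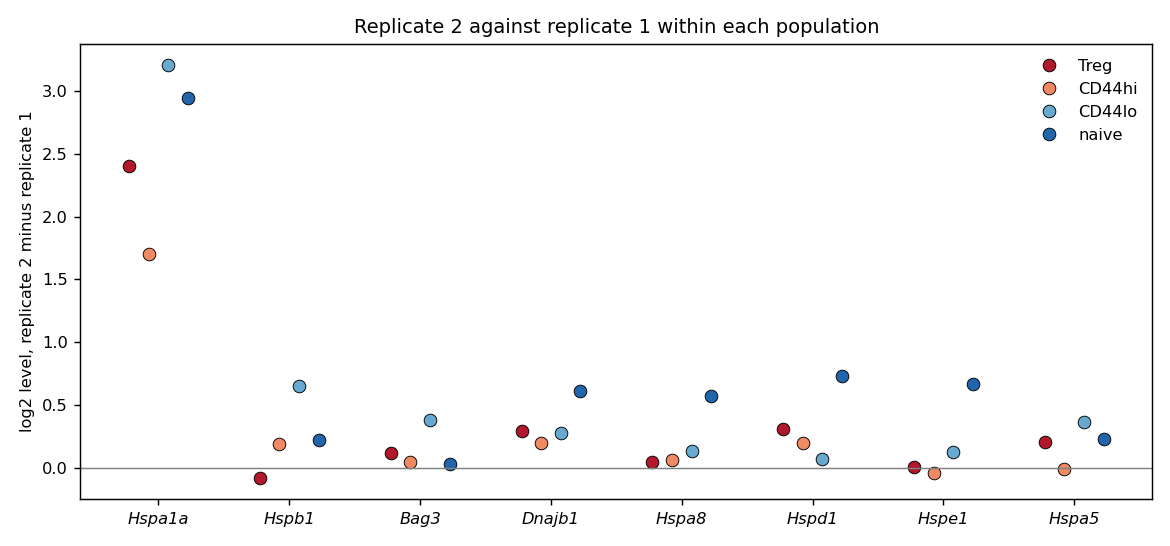
Log2 level of the array numbered 2 minus that of the array numbered 1 (y axis) within each group (colours) for Hspa1a and the 7 chaperone genes (x axis). Hspa1a differs by 1.70 to 3.21 in the 4 groups, and the 7 genes by -0.08 to 0.73.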

How the data were processed

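Each array file as deposited gives a scanner intensity per spot, read with Agilent Feature Extraction 9.5.1.1 and not normalised between arrays, per the file headers. The flags per spot (well above background, saturated, outlier) are also those of the deposited files. The authors' deposited value table is on a log2 scale, and the submitters' processing notes name limma. Outlier spots were left out, spots of a probe were averaged, and each array's 75th percentile was subtracted from its log2 processed signals. A gene was read from the probe with the highest mean level. Genes were tested where at least 1 group had the probe well above background on its 2 arrays (17996 of 27670 names), which all 7 chaperones passed. None of their spots was saturated or an outlier.

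Groups were compared in R 4.3.3 with limma 3.58.1 over all 8 arrays without a block (4 residual and 2.62 prior degrees of freedom, 2-sided). The fit was also run on simulated data, with independent noise for each gene and array and no shift of a whole array. That run therefore cannot speak to the disagreement of the naive arrays. Exact permutation of 2 arrays against 2 gives no p below 0.333. No label states that the samples of a group came from separate animals, so each p reflects only the spread between these samples, possibly a technical one. The number of arrays limits the precision. The genes and lists were chosen with earlier results of these data known. The text names all 7 genes with their probes, up to 4 called genes per list and comparison with the largest difference and the same sign on both slides, for each called member the 3 genes most correlated with it, and label checks. Hsf1, Hspa1a, Fos, Fosb and Fkbp5 were named after their values were seen. Alternatives were the replicate number or slide as a block, normexp correction, quantile normalisation, the authors' table, other filters on dim probes, the mean of all probes, every probe, the compared groups only, an intensity trend, and each array left out. Leaving out arrays for the list genes and second probes was added after their values were seen.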

Additional observations from a re-analysis of the deposited data

How the results depend on the processing

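The counts of members called changed with several choices, and the cause was not tested. With normexp-corrected spot means, 0 members were called in CD44lo against naive cells, and Hspb1 in CD44hi against naive cells turned to log2 -0.13. With the mean of all probes of a gene, which averages the Hspb1 probe with one not above background, 0 were called in CD44lo against naive, CD44hi against CD44lo and Treg against CD44lo. With no filter on dim probes (27670 names tested), and with only the compared groups in the fit, 0 were called in CD44hi against naive, CD44hi against CD44lo and Treg against CD44lo. Treg against CD44hi gave 2 (Hspb1 and Hspe1) under quantile normalisation, on the authors' deposited table and with only these groups, and Treg against naive gave 2 (Hspb1 and Hspa5) on the authors' table. Hspa8 turned to log2 0.0576 in Treg, 0.0255 in CD44hi and 0.0496 in CD44lo against naive under quantile normalisation, to 0.10, 0.14 and 0.09 on the authors' table, and to 0.22, 0.0531 and 0.12 with the mean of probes, none called. Hspe1 in Treg against naive turned to 0.005 on the authors' table and ranged from -0.63 to 0.034 when single arrays were left out, the highest without naive replicate 2. With each array left out in turn, the members called ranged from 1 to 2 in Treg against CD44hi, 0 to 1 in Treg against CD44lo, 1 to 4 in Treg against naive, 0 to 1 in CD44hi against CD44lo, 0 to 5 in CD44hi against naive and 1 to 4 in CD44lo against naive. The 4, 5 and 4 came without naive replicate 1, which leaves naive replicate 2 alone, assumed to vary like the other groups. Those fits called Hspe1 and Hspa8 in all 3 comparisons, and also Hspb1 (Treg, CD44lo), Hspd1 (CD44hi, CD44lo), Dnajb1 (Treg, CD44hi) and Bag3 (CD44hi). The shares of all genes called in those fits, given above, were also larger, so these calls are not particular to the members. Hspb1 in Treg against naive held its call throughout, at log2 3.18 to 3.40 without single arrays and 1.35 to 3.29 under the other settings.

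The replicate numbers were not taken as pairs, and the titles do not say what a number stands for. Deviations of same-numbered arrays correlated positively in every pair of groups, by 0.0564 (naive and Treg) to 0.332 (CD44hi and Treg). Over all genes a replicate block called more in every comparison, such as 2263 beside 1686 in CD44hi against CD44lo cells. A replicate block left the members called at 1 in Treg against CD44hi, 1 in Treg against CD44lo, 1 in Treg against naive, 1 in CD44hi against CD44lo, 2 in CD44hi against naive and 1 in CD44lo against naive, and so did a slide block. Genes called in all ranged, over settings with all arrays and then without 1 array, from 776 to 2125 and 535 to 2635 in Treg against CD44hi (1474 as reported), 382 to 1398 and 188 to 1641 in Treg against CD44lo (1001), 2301 to 5202 and 1788 to 9200 in Treg against naive (3941), 842 to 2263 and 513 to 2765 in CD44hi against CD44lo (1686), 2610 to 6920 and 2593 to 9232 in CD44hi against naive (4998), and 606 to 1273 and 506 to 7191 in CD44lo against naive (952). The highest counts against naive cells came without naive replicate 1. The comparison of arrays numbered 2 with 1 called 0 members under each of its alternatives.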

Other observations

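Hspa1a was not the only gene that followed the replicate number. These values come from the same fit of arrays numbered 2 against arrays numbered 1, chosen after they had been seen, and none of those named here passed the adjusted threshold. Fosb and Fos, immediate early transcription factors that rise within minutes of many stimuli, were 2.39-fold (adjusted p = 0.118) and 2.15-fold (adjusted p = 0.175) higher on arrays numbered 2, in all 4 groups. Of 18 tested immediate early genes 10 were higher on arrays numbered 2 in all 4 groups and 0 were lower in all 4. Among 15 tested further genes known to be induced by heat shock the counts were 7 and 0, and over all 17996 genes 2918 and 1744. Fkbp5, an HSP90 co-chaperone known as a glucocorticoid target, went the other way, 1.94-fold lower on arrays numbered 2 in all 4 groups (adjusted p = 0.121). The Hspa1a difference passed the threshold after normexp correction (log2 2.17, adjusted p = 0.00272), on the authors' deposited table (log2 2.24, adjusted p = 0.0142), with an intensity trend (adjusted p = 0.0112), among genes above background on all 8 arrays (adjusted p = 0.0373) and without either CD44hi array (adjusted p = 0.0296). Over the settings with all arrays it was log2 2.17 to 2.60, with adjusted p from 0.00272 to 0.496. Whether the numbers stand for days, pools of mice or anything else was not given in the labels.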
